A study of Mus musculus with 8 samples.

Results

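The mitochondrial respiratory chain and ATP synthase are assembled largely from subunits that the nuclear genome encodes. These genes were taken from the amygdala expression table by name (Nduf followed by a, b, c, s or v, Sdha to Sdhd, Uqcr, Cox4 to Cox8 and Atp5). The names matched 94 genes. Of these, 2 (*Cox8c* and *Ndufs5*) had 1 constant value, listed at 0, in every library, and 9 varied but lay under the minimum mean level of 3 over all 8 libraries. The remaining 83 of the 24982 genes in the table are described here. They comprise 75 subunits, of which 35 belong to complex I, 4 to complex II, 8 to complex III, 12 to complex IV and 16 to complex V, and 8 assembly or coupling factors (*Ndufaf1* to *Ndufaf7* and *Atp5s*). *Ndufa4*, named after complex I, was counted with complex IV, of which it is a subunit. The rule used names and a mean over all libraries and no difference between groups, but it was set with earlier results of these data known.

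The mice were C57BL/6 males, purchased at 8 wk and group housed per the labels. The aspartame mice drank water with 0.03% aspartame and the controls drank plain drinking water, for 18 wk per the labels. The study's text instead gives a shorter exposure and housing in pairs. They were 187 to 189 d old at collection. RNA of the microdissected amygdala, the brain region of fear and anxiety responses, was sequenced with 1 library per mouse (Aspartame 1 to 4 and Water 1 to 4, 4 in each group), so that the spread between libraries is a spread between animals. The comparison of aspartame with plain water asks which amygdala mRNAs differ after exposure. Values are regularized log2 expression values (rlog), and a difference of 1 is a doubling. The table gives no counts, so the depth of each library is unknown.

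Complex I takes electrons from NADH and complex II takes them from succinate. Both pass them through ubiquinone to complex III, and cytochrome c carries them to complex IV, which reduces oxygen. Protons pumped by complexes I, III and IV drive the rotor of complex V, the ATP synthase. Neurons spend most of this ATP on restoring ion gradients after synaptic activity and firing. The mitochondrial genome encodes further subunits of these complexes except complex II, and none of these was among the genes of the table. The names also miss *Cyc1*, the nuclear gene of cytochrome c1 in complex III. It was counted with the electron carriers below and is not in the complex III values.

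The nuclear genes for these subunits are known to share the transcription factors NRF1, GABP (also called NRF2) and YY1. Promoters of 300 bases (250 before and 50 after the start) were taken from RefSeq on GRCm38.p6 for 68 of the 83 members, which gave 73 promoters. They were searched on both strands for GCGCATGC (NRF1), CCGGAAG (GABP) and AAGATGGC (YY1). The NRF1 letters and their reverse complement overlap each other, and the GABP and YY1 letters can share AAG. The NRF1 letters were in 16.4% of member promoters and in 2.71% of all 32851 promoters, the GABP letters in 23.3% and 8.86%, and the YY1 letters in 12.3% and 2.75%. Member promoters also had more G and C, with a median of 58.3% against 52.7%. Of the 12 members with a promoter here that passed the test between the groups without Aspartame 2, *Atp5e*, *Atp5h* and *Uqcrh* had the GABP letters, *Ndufc1* had the YY1 letters and none had the NRF1 letters. A match describes the letters and shows no binding. The promoters of *Uqcrh* and *Atp5h*, with the GABP letters (here as the reverse complement) in capitals beginning 10 and 38 bases before the start, of *Ndufc1*, with the YY1 letters in capitals beginning 23 bases after the start, and of *Ndufa1*, the 1 member that passed with a higher level after aspartame and whose promoter held none of the 3 motifs, are shown 5′ to 3′.
*Uqcrh* (chr4:116075021-116075320, minus strand): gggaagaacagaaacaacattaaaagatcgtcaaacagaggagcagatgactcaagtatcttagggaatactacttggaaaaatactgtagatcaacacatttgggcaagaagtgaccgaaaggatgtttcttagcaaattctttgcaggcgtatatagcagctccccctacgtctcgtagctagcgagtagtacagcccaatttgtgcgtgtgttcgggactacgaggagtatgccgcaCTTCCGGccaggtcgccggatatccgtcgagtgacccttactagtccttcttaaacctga
*Atp5h* (chr11:115419870-115420169, minus strand): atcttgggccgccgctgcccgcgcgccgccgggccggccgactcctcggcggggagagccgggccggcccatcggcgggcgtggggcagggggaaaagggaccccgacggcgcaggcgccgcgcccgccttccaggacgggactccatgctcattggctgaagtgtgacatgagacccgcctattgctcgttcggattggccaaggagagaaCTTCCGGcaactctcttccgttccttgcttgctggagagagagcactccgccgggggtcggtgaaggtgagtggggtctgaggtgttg
*Ndufc1* (chr3:51408906-51409205, minus strand): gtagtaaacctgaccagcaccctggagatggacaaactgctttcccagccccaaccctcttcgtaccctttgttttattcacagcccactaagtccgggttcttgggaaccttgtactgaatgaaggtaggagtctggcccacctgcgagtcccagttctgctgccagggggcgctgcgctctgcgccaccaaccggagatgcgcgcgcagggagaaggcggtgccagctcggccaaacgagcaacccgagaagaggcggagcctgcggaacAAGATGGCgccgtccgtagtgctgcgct
*Ndufa1* (chrX:37191189-37191488, minus strand): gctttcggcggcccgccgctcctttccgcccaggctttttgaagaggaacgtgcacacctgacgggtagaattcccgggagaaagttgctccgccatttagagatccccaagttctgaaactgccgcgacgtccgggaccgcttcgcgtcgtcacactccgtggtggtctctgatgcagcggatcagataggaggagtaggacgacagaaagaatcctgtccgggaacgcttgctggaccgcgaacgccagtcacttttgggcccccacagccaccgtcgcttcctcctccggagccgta

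Aspartame 2 stood apart from the other libraries over all genes. It lay at 27.6 on the first principal component, which held 55.8% of the variance, while Aspartame 1, 3 and 4 lay between -24.0 and -5.55 and the plain water libraries between -4.32 and 10.3. Correlations between libraries over the genes tested were 0.971 to 0.993 within aspartame, 0.993 to 0.997 within plain water and 0.984 to 0.994 between the groups. Libraries also differed with base composition. For this, the rlog of each gene was set relative to its mean over all 8 libraries. The median of the tenth of genes richest in GC minus that of the tenth poorest was 0.38, -0.65, 0.03 and 0.46 in Aspartame 1 to 4, against 0.20, -0.13, -0.22 and -0.12 in Water 1 to 4. Water 1 also differed from the other plain water libraries in choroid plexus markers, whose summed level was 7.49 to 7.93 rlog in the aspartame libraries and 7.30 to 7.43 rlog in Water 2 to 4 but 10.45 rlog in Water 1, through *Ttr*, the transthyretin gene. The study's methods left out an aspartame library after a principal component analysis and do not name it. Each comparison is therefore given with all 8 libraries and without Aspartame 2.

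In plain water the members differed widely in level. Per kilobase of the longest coding transcript (mean rlog minus the log2 of the length in kb), complex IV had the highest median at 8.49 and complex I the lowest of the 5 complexes at 6.83, with 8.24 in complex V, 7.31 in complex II and 7.21 in complex III. The assembly or coupling factors had a median of 5.67. The highest member of each complex was *Atp5b*, the catalytic beta subunit of ATP synthase, at 10.19, *Uqcrh*, the hinge subunit of complex III, at 9.91, *Cox6b1* at 9.33, *Sdha*, the flavoprotein of complex II, at 9.05, and *Ndufb9* at 8.91 in complex I. The lowest of each complex were *Uqcrq* at 3.99, *Ndufb2* at 4.15, *Atp5g1* at 4.55, *Sdhc* at 5.36 and *Cox7c* at 7.47. Among the factors *Ndufaf5* was highest at 6.19 and *Ndufaf6* lowest at 4.26. With the median transcript length in place of the longest, the ranks over the 83 members were similar (Spearman rho = 0.93 across genes), but the highest member of complex I and of the factors, and the lowest of complexes I, II and IV, were other genes. The order of the complexes also changed, with medians of 8.66 in complex IV, 8.46 in complex V, 8.03 in complex III, 7.54 in complex I and 7.40 in complex II.

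**Figure D1:**
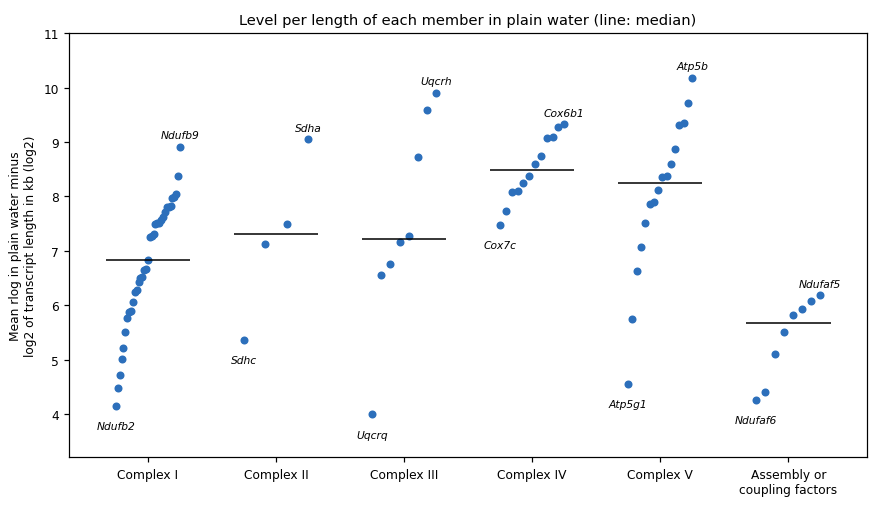
Level per length of the 83 members in plain water, as mean rlog over 4 libraries minus the log2 of the transcript length in kilobases (log2 scale). Each point is a gene, ordered by level within its complex, the line is the median, and the highest and lowest genes are named. Complex IV ranged from 7.47 (*Cox7c*) to 9.33 (*Cox6b1*), while complex III ranged from 3.99 to 9.91.

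Where a subunit has tissue isoforms, the genes that most tissues use passed the minimum and those of muscle, testis or lung did not. *Cox4i1*, *Cox6a1*, *Cox6b1*, *Cox7a2* and *Cox8a* were members, while *Cox4i2*, *Cox6a2*, *Cox6b2*, *Cox7a1*, *Cox7b2* and *Cox8b* averaged -1.05 to 1.80 rlog over the 8 libraries. *Ndufa4l2*, a hypoxia-induced relative of *Ndufa4*, averaged 1.48 rlog. The c ring of ATP synthase has 3 genes for 1 mature protein, and in plain water *Atp5g3* had 8.12 per kilobase, *Atp5g2* 5.74 and *Atp5g1* 4.55 on the same log2 scale. The order of the last 2 rests on the length. Before it was taken into account, the means were 7.65, 5.33 and 6.79 rlog in the same order. The longest coding transcripts had 723, 753 and 4715 bases.

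With all 8 libraries, 0 of the 83 members passed the test between aspartame and plain water (limma, adjusted p under 0.05 over 12861 genes), and 0% of all genes tested did. At an unadjusted p under 0.05, 9 members differed (8 lower and 1 higher), which is 10.8% of them against 4.3% of all genes. Limma with estimated library weights called 4 of the 83 members and 443 of the 12861 genes. Without Aspartame 2, 13 of the 83 members passed (15.7%), against 8.83% of all genes tested. Of these 12 were lower after aspartame, where the background was 2.72%, and *Ndufa1* was higher, where the background was 6.11%. At an unadjusted p under 0.05, 32 members differed (27 lower and 5 higher), which is 38.6% against 27.1%. No test of the members as a set was made.

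The median difference of the members was -0.13 without Aspartame 2 and -0.11 with all 8 libraries, against -0.0043 and 0.0033 over all genes tested. With all 8 libraries, 66 of the 83 differences lay below 0. In 33 members the 3 aspartame libraries did not overlap the 4 of plain water (31 lower and 2 higher), against 23% of all genes. With Aspartame 2 included this held for 9 members, all lower, against 3.37% of all genes.

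**Figure D2:**
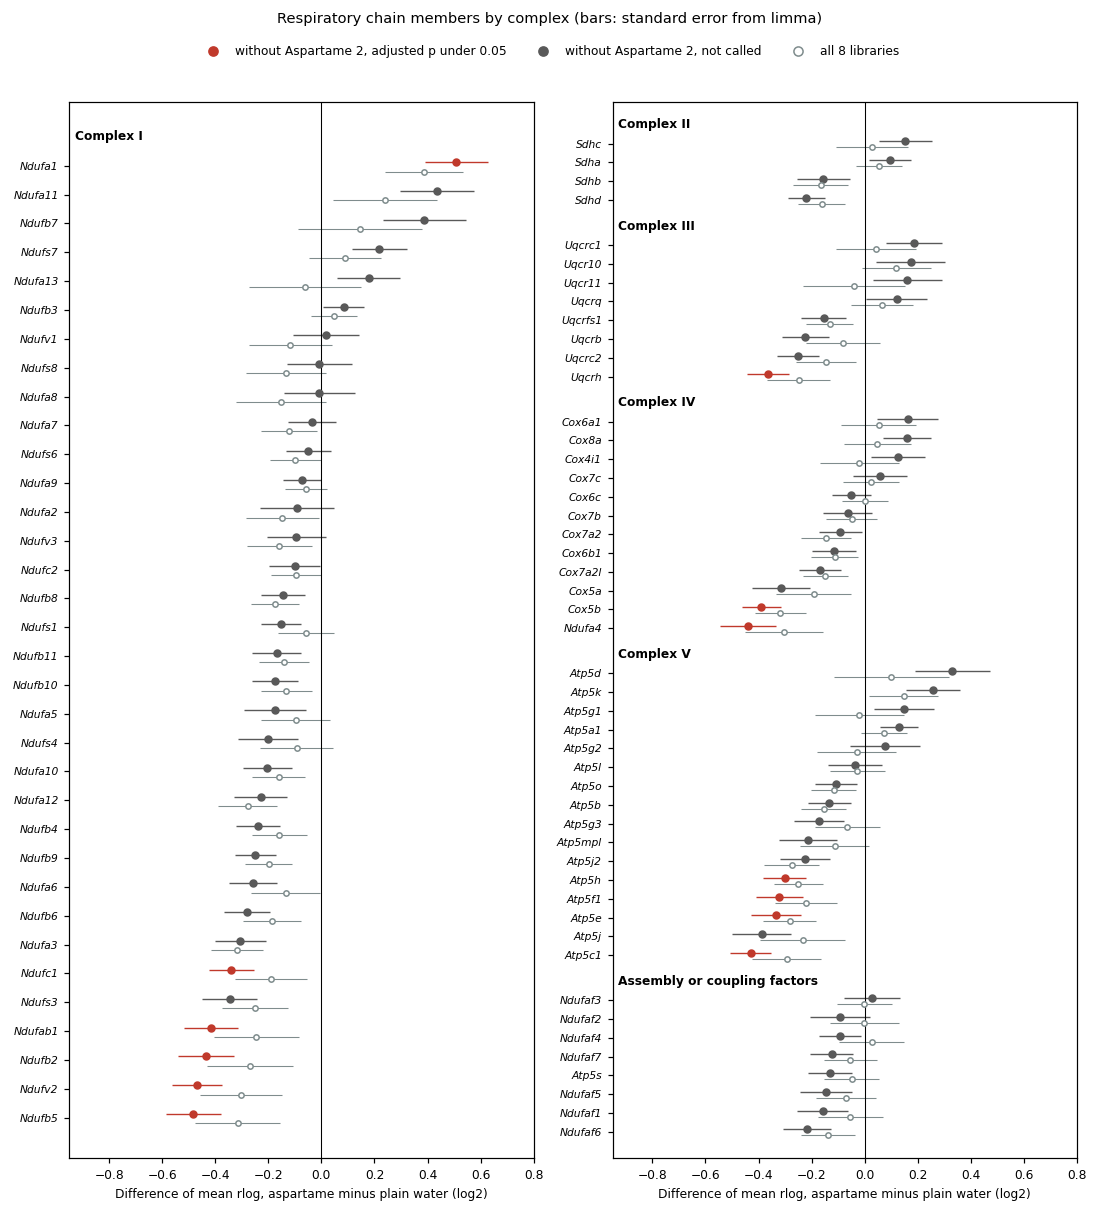
Difference of mean rlog between aspartame and plain water for 82 of the 83 members, grouped by complex, on a log2 scale. Filled points leave out Aspartame 2 (3 against 4 libraries; red, adjusted p under 0.05) and open points use all 8 libraries, with bars for the standard error. The filled points run from -0.48 (*Ndufb5*) to 0.51 (*Ndufa1*), and the red points lie in complexes I, III, IV and V.

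Without Aspartame 2, 5 of the 35 complex I subunits fell and 1 rose, and the complex had a median difference of -0.15. Here and below, fell and rose mean that a gene passed the test in that direction. The share called was 17.1%, against 8.83% of all genes (2.72% lower and 6.11% higher). Called or not, 28 of the 35 differences lay below 0. The subunits that fell were *Ndufv2*, a core iron-sulfur protein of the NADH-oxidizing module, *Ndufab1*, the mitochondrial acyl carrier protein, and *Ndufb5*, *Ndufb2* and *Ndufc1*, accessory subunits of the membrane arm. On GRCm38, *Ndufb5* lies at chr3:32736990-32751566 and *Ndufv2* at chr17:66078638-66101559. *Ndufb5* had 7.42, 7.86, 7.20 and 6.97 rlog in Aspartame 1 to 4, against 7.78, 7.68, 7.63 and 7.63 rlog in Water 1 to 4. Aspartame 1, 3 and 4 lay below every plain water library, Aspartame 2 lay above them all, and the difference without it was -0.48 ± 0.10 (standard error (SE); adjusted p = 0.0199). *Ndufv2* had 7.64, 8.23, 7.70 and 7.34 rlog in Aspartame 1 to 4, against 8.10, 8.02, 8.03 and 7.98 rlog in Water 1 to 4. The pattern was that of *Ndufb5*, with Aspartame 2 highest and the other aspartame libraries lowest, and a difference of -0.47 ± 0.09 (SE, adjusted p = 0.0157). *Ndufb2* had 5.87, 6.50, 6.00 and 5.65 rlog in Aspartame 1 to 4, against 6.42, 6.16, 6.32 and 6.19 rlog in Water 1 to 4, and its difference was -0.43 ± 0.11 (SE, adjusted p = 0.0305). Here too Aspartame 2 exceeded every plain water library. *Ndufab1* differed by -0.42 ± 0.10 (SE, adjusted p = 0.0298) and *Ndufc1* by -0.34 ± 0.09 (SE, adjusted p = 0.034). With all 8 libraries these 5 genes differed by -0.32, -0.30, -0.27, -0.25 and -0.19 in the order *Ndufb5*, *Ndufv2*, *Ndufb2*, *Ndufab1* and *Ndufc1*, none of them past the threshold.

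*Ndufa1*, an X-linked accessory subunit of the membrane arm that assembly of complex I needs, went the other way. *Ndufa1* had 6.90, 6.59, 6.93 and 7.38 rlog in Aspartame 1 to 4, against 6.70, 6.56, 6.50 and 6.49 rlog in Water 1 to 4. Without Aspartame 2 all 3 aspartame libraries lay above the plain water libraries, Aspartame 4 by the most, and the difference was 0.51 ± 0.12 (SE, adjusted p = 0.0269), a fold of 1.42. Aspartame 2 lay within the range of plain water, and with all 8 libraries the difference was 0.39 ± 0.15 (SE, adjusted p = 0.903). *Ndufa1* mRNA therefore differed in sign from the 12 other called members, 5 of them in the same complex.

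The subunit of complex I with the smallest p over all 8 libraries was *Ndufa3*, an accessory subunit of the membrane arm. *Ndufa3* had 6.86, 6.69, 6.57 and 6.77 rlog in Aspartame 1 to 4, against 7.19, 6.98, 6.97 and 7.03 rlog in Water 1 to 4. All 4 aspartame libraries lay below all 4 plain water libraries. The difference was -0.32 ± 0.10 over all 8 (SE, unadjusted p = 0.00769, adjusted p = 0.903) and -0.31 without Aspartame 2 (adjusted p = 0.0678), so that neither passed.

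By function, the 11 subunits of the NADH-oxidizing module had a median difference of -0.15 without Aspartame 2 (2 fell) and the 19 of the membrane arm and the rest -0.17 (3 fell and 1 rose). In the ubiquinone-binding module *Ndufs3*, *Ndufa5*, *Ndufs8* and *Ndufs7* differed by -0.35, -0.18, -0.01 and 0.22, and none of these passed. Of the core subunits described here, which bacteria also have, *Ndufv2* passed and the others did not. *Ndufs3* averaged 7.22 ± 0.24 rlog in the aspartame libraries and 7.57 ± 0.03 rlog in plain water without Aspartame 2 (adjusted p = 0.0583), and *Ndufs1*, which carries iron-sulfur clusters, differed by -0.15 ± 0.07 (SE). *Ndufs8*, another iron-sulfur protein, had a standard error of 0.12 and *Ndufs7* of 0.10, and *Ndufv1*, which binds NADH and the flavin, differed by 0.02 ± 0.12 (SE). *Ndufb9*, the most abundant per length, differed by -0.25 ± 0.08 (SE, adjusted p = 0.0625). The other complex I subunits ranged from -0.28 (*Ndufb6*) to 0.44 (*Ndufa11*).

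None of the 4 complex II subunits passed in either comparison. *Sdhd*, a membrane anchor, came nearest. *Sdhd* had 7.57, 7.79, 7.57 and 7.55 rlog in Aspartame 1 to 4, against 7.81, 7.77, 7.76 and 7.80 rlog in Water 1 to 4. Aspartame 1, 3 and 4 lay close together and below plain water, Aspartame 2 lay within its range, and without it the difference was -0.22 ± 0.07 (SE, adjusted p = 0.0718). *Sdhb* (the iron-sulfur subunit) had 7.26, 7.13, 7.11 and 7.14 rlog in Aspartame 1 to 4, against 7.55, 7.26, 7.16 and 7.33 rlog in Water 1 to 4. The groups overlapped, with Water 1 highest, and its difference was -0.16 ± 0.10 without Aspartame 2 and -0.17 ± 0.10 (SE) with all 8. *Sdha* averaged 10.68 ± 0.13 rlog in the aspartame libraries and 10.59 ± 0.04 rlog in plain water, and the other membrane anchor *Sdhc* averaged 7.18 ± 0.11 rlog in the aspartame libraries and 7.02 ± 0.15 rlog in plain water (SD, 3 and 4 libraries). The median difference of the complex was -0.03 without Aspartame 2, where it became 0.01 when Water 1 or Aspartame 4 was also left out, and -0.07 with all 8 libraries.

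In complex III 1 of 8 subunits fell without Aspartame 2 (12.5%, against 8.83% of all genes called and 2.72% called lower). This subunit was *Uqcrh*, the hinge protein that holds cytochrome c1 and cytochrome c together. *Uqcrh* had 8.79, 9.13, 8.67 and 8.56 rlog in Aspartame 1 to 4, against 9.06, 9.02, 9.11 and 8.96 rlog in Water 1 to 4. The 3 other aspartame libraries lay below plain water and Aspartame 2 above it. The difference was -0.36 ± 0.08 (SE, adjusted p = 0.0222) without Aspartame 2 and -0.25 ± 0.12 (SE) with all 8. *Uqcrc2* (a core protein) had 9.32, 9.81, 9.53 and 9.32 rlog in Aspartame 1 to 4, against 9.64, 9.56, 9.70 and 9.66 rlog in Water 1 to 4. Aspartame 2 was again the highest library and Aspartame 1, 3 and 4 the lowest, with a difference of -0.25 ± 0.08 (SE, adjusted p = 0.0697) without it. *Uqcrfs1*, the Rieske iron-sulfur protein, differed by -0.16 ± 0.08 and *Uqcrb*, near the ubiquinone site, by -0.22 ± 0.09 (SE). The other 4 subunits had positive differences, 0.19 in *Uqcrc1*, 0.17 in *Uqcr10*, 0.16 in *Uqcr11* and 0.12 in *Uqcrq*, and none of these 7 passed. The median of the complex was -0.02 without Aspartame 2, where it became 0.03 when Water 1 or Aspartame 3 was also left out and -0.07 without Aspartame 1, and -0.06 with all 8 libraries.

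Complex IV had 2 subunits of 12 that fell without Aspartame 2, *Cox5b*, a zinc-binding subunit on the matrix side, and *Ndufa4*. This is 16.7%, against 8.83% of all genes called and 2.72% called lower, and 8 of the 12 differences lay below 0. *Cox5b* lies at chr1:36691449-36693681. *Cox5b* had 7.66, 7.93, 7.58 and 7.69 rlog in Aspartame 1 to 4, against 8.11, 8.01, 8.04 and 7.97 rlog in Water 1 to 4. All 4 aspartame libraries, Aspartame 2 included, lay below all 4 plain water libraries. The difference was -0.39 ± 0.07 (SE, adjusted p = 0.0138) without Aspartame 2 and -0.32 ± 0.10 with all 8, where *Cox5b* had the smallest p of all members (unadjusted p = 0.00682, adjusted p = 0.903). *Ndufa4* had 8.15, 8.47, 7.98 and 7.67 rlog in Aspartame 1 to 4, against 8.48, 8.33, 8.38 and 8.30 rlog in Water 1 to 4. Aspartame 2 lay level with Water 1 at the top and the others lay below plain water, with a difference of -0.44 ± 0.11 (SE, adjusted p = 0.0298). None of the other 10 passed. *Cox4i1*, which carries the ATP-binding regulation of the complex, differed by 0.13 ± 0.10 without Aspartame 2 and -0.02 ± 0.15 with all 8. *Cox6a1* differed by 0.16, *Cox8a* by 0.16, *Cox7c* by 0.06, *Cox7a2* by -0.09, *Cox6b1* by -0.12 and *Cox7a2l*, a factor that joins complexes III and IV, by -0.17, with standard errors of 0.08 to 0.12. The median of the complex was -0.08 in both comparisons, and without Aspartame 2 it became -0.12 when Aspartame 1 was also left out and -0.05 when Aspartame 4 was.

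Complex V had 4 of 16 subunits that fell without Aspartame 2 and none that rose. This is 25%, against 8.83% of all genes called and 2.72% called lower, and 11 of the 16 differences lay below 0. *Atp5c1* (chr2:10056016-10080510) is the gamma subunit, the shaft of the rotor, and *Atp5e* the epsilon subunit attached to it, while *Atp5f1* (subunit b) and *Atp5h* (subunit d) form the peripheral stalk that holds the catalytic head still. *Atp5c1* had 8.76, 9.28, 8.84 and 8.61 rlog in Aspartame 1 to 4, against 9.18, 9.14, 9.23 and 9.13 rlog in Water 1 to 4. Aspartame 2 was the highest of the 8 and the other aspartame libraries the 3 lowest. The difference was -0.43 ± 0.08 (SE, adjusted p = 0.0121) without Aspartame 2, the smallest adjusted p of any member. *Atp5f1* had 9.31, 9.63, 9.36 and 9.01 rlog in Aspartame 1 to 4, against 9.54, 9.55, 9.58 and 9.54 rlog in Water 1 to 4, and its difference was -0.32 ± 0.09 (SE, adjusted p = 0.0446). The order was the same, and the plain water libraries lay close together. *Atp5h* had 8.97, 9.08, 8.94 and 8.70 rlog in Aspartame 1 to 4, against 9.14, 9.17, 9.18 and 9.19 rlog in Water 1 to 4. *Atp5e* had 5.59, 5.70, 5.50 and 5.39 rlog in Aspartame 1 to 4, against 5.96, 5.76, 5.88 and 5.71 rlog in Water 1 to 4. In these 2 genes Aspartame 2 lay below plain water with the rest, and the differences were -0.30 ± 0.08 (SE, adjusted p = 0.042) for *Atp5h* and -0.33 ± 0.09 (SE, adjusted p = 0.048) for *Atp5e* without it, and -0.25 and -0.28 with all 8 libraries. Neither passed with all 8.

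The alpha to epsilon subunits were not uniform. *Atp5b* differed by -0.13 ± 0.08, *Atp5a1*, the alpha subunit, by 0.13 ± 0.07 and *Atp5d*, the delta subunit, by 0.33 ± 0.14 (SE, without Aspartame 2, none past the threshold). The 3 c ring genes differed by 0.15, 0.08 and -0.17 in the order *Atp5g1*, *Atp5g2*, *Atp5g3*, and in each the groups overlapped. The 8 subunits of the stalk and membrane part had a median of -0.22, 7 of them below 0. The median of complex V was -0.15 without Aspartame 2, or -0.08 when Aspartame 4 was also left out, and -0.12 with all 8 libraries.

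None of the 8 assembly or coupling factors passed. *Ndufaf6* had 4.13, 4.47, 4.32 and 4.02 rlog in Aspartame 1 to 4, against 4.45, 4.41, 4.26 and 4.37 rlog in Water 1 to 4, a difference of -0.22 ± 0.09 (SE, adjusted p = 0.152) without Aspartame 2. *Ndufaf1* had 6.23, 6.65, 6.40 and 6.06 rlog in Aspartame 1 to 4, against 6.32, 6.35, 6.44 and 6.44 rlog in Water 1 to 4. Both genes overlapped between the groups, Aspartame 4 was lowest in both and Aspartame 2 highest. *Ndufaf5* differed by -0.14, and the median of the 8 was -0.13 without Aspartame 2 and -0.05 with it.

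**Figure D3:**
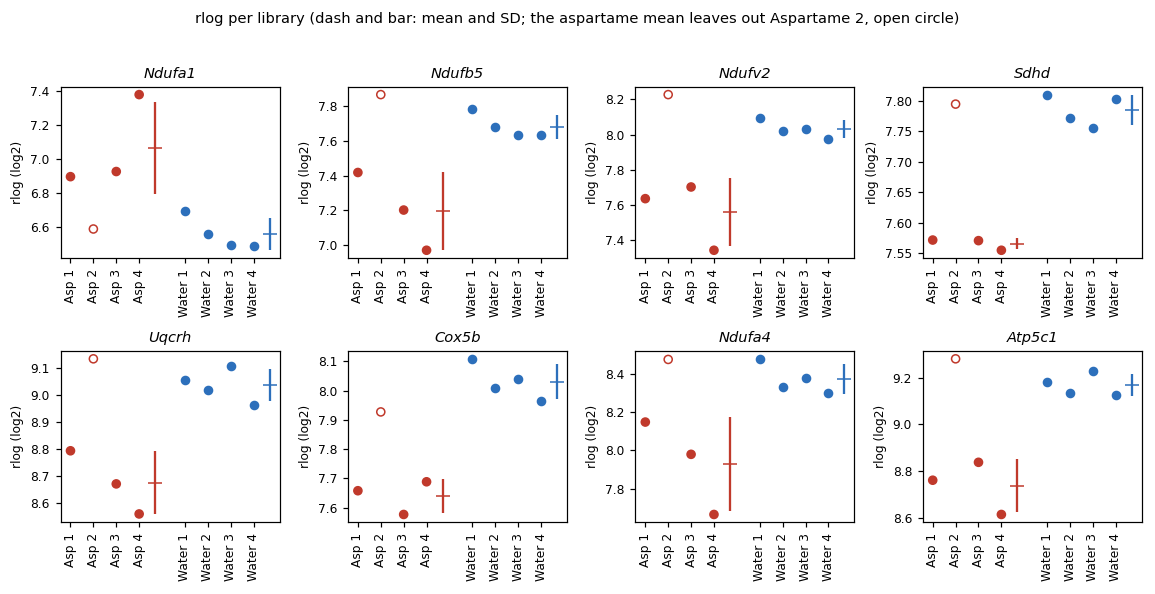
rlog values (log2) per library of 8 members, with aspartame libraries in red at left (Aspartame 2 open) and plain water libraries in blue at right. Dashes and bars are the mean and SD, leaving out Aspartame 2 (n = 3 and 4). In *Ndufb5*, *Ndufv2*, *Uqcrh* and *Atp5c1* the open point lies above every plain water library and the other 3 lie below, in *Cox5b* all 4 lie below, and in *Ndufa1* 3 lie above.

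Aspartame 2 went against the other aspartame libraries in many members. Of the 12 called members that were lower without it, 9 were above the mean of plain water in Aspartame 2. Of the 23 members that were higher without it, called or not, 22 lay below that mean in Aspartame 2, and of the 60 that were lower, 31 lay above. The same count over all genes is not given, but opposite signs were not particular to the members. Among all genes above the median GC content, the median difference was 0.09 without Aspartame 2 and -0.17 in Aspartame 2 against plain water. Among those at or below it, the values were -0.07 and 0.15. Per library, the median over the complex I subunits, each relative to its mean in plain water, was -0.11, -0.05, -0.19 and -0.14 in Aspartame 1 to 4, against 0.13, -0.04, -0.04 and -0.03 in Water 1 to 4. For complex V it was -0.07, -0.11, -0.10 and -0.29 in Aspartame 1 to 4, against 0.11, -0.04, -0.02 and -0.03 in Water 1 to 4. In both complexes all 4 aspartame medians lay below all 4 plain water medians, narrowly so in complex I, while in complexes II, III and IV they overlapped. Water 1 had the highest median of the 8 libraries in each of the 5 complexes, and without it the median differences of complexes I to V over the other 7 libraries were -0.08, -0.01, -0.02, -0.04 and -0.10, in place of -0.13, -0.07, -0.06, -0.08 and -0.12. In bulk tissue, fewer cells of a type and less RNA per cell cannot be told apart.

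**Figure D4:**
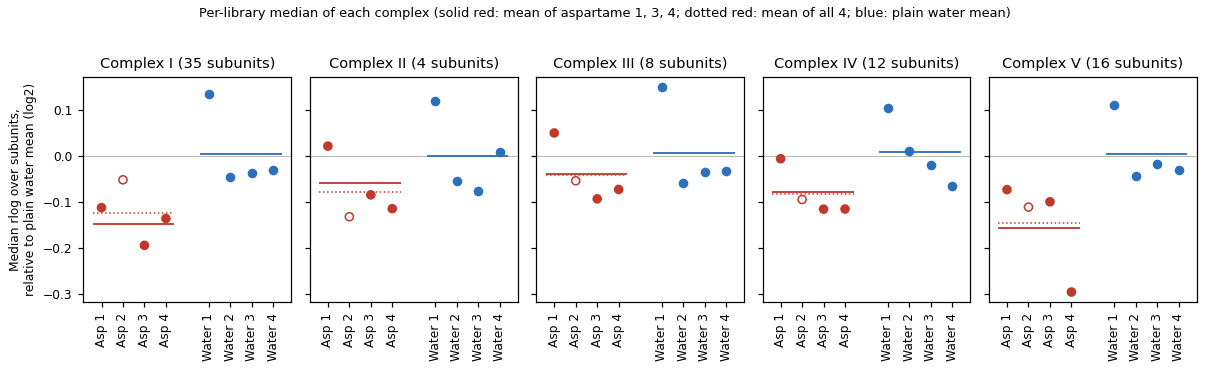
Median rlog over the subunits of each complex, with each subunit set relative to its mean in plain water (log2), per library. Aspartame libraries are in red at left (Aspartame 2 open) and plain water libraries in blue at right, and lines are group means (dotted, all 4 aspartame libraries). In complex I the aspartame medians run from -0.19 to -0.05 and those of plain water from -0.04 to 0.13, with Water 1 highest.

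The differences moved with base composition. Over the 83 members, the Spearman rho across genes between the difference and the GC content of the longest coding transcript was 0.40 without Aspartame 2, 0.16 with all 8 libraries and -0.64 for Aspartame 2 alone against plain water. Over the 12778 genes with a GC value it was 0.52, 0.25 and -0.78. These are descriptions, since genes share libraries and are not independent. Of the 13 called members, 9 had a GC content at or below the median of all genes (49.9%), as did 36 of the 83. When a smooth trend with GC content and transcript length was removed within each library, 3 members were called without Aspartame 2, against 2.19% of all genes. These were *Atp5c1*, which differed by -0.29 (adjusted p = 0.0384), *Ndufa1*, higher by 0.70 (adjusted p = 0.03), and *Ndufb3*, an accessory subunit of complex I that was not called before, higher by 0.33 (adjusted p = 0.0315). The other 11 called members kept a negative difference, from -0.34 (*Ndufb2*) to -0.09 (*Ndufc1*). The median of the members was then 0.02 without Aspartame 2, against 0.02 over all genes. With all 8 libraries it was -0.02, against 0.01 over all genes, and no member was called.

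**Figure D5:**
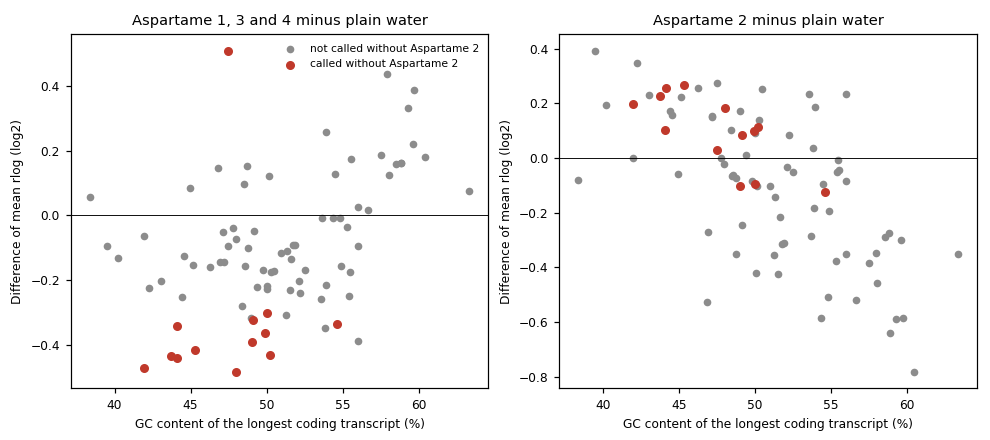
Difference of mean rlog (log2) against the GC content of the longest coding transcript (%) for the 83 members. The left panel sets Aspartame 1, 3 and 4 against plain water and the right panel Aspartame 2 alone against plain water, with the 13 members called without Aspartame 2 in red. The points slope up at left (rho = 0.40) and down at right (rho = -0.64).

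The calls without Aspartame 2 depended on single libraries. When each of the 7 was left out in turn, the number of members called ranged from 0 to 25. It was 0 without Water 3, 3 without Water 2, Water 4 or Aspartame 4, 9 without Water 1 or Aspartame 1 and 25 without Aspartame 3. Calls over all genes, 1136 with the 7 libraries, moved too. They were 135 without Water 3 and 371, 221 and 277 without Water 2, Water 4 and Aspartame 4. Without Water 1, Aspartame 1 and Aspartame 3 they were 1177, 792 and 2080. *Atp5c1*, *Cox5b* and *Ndufv2* lost the call in 1 of the 7 cases, without Water 3 (adjusted p = 0.053, 0.058 and 0.058), and the other 10 lost it in 4 to 6 cases. With age in days (187 or 188 in Aspartame 1, 3 and 4, against 187 or 189 in plain water) as a covariate 2 members were called, and 223 of all genes tested. Of the 83 members, 23 had a stretch of at least 150 bases at 95% identity or more in a transcript of another gene on the same strand, mostly pseudogenes. Among the 13 called these were *Atp5c1*, *Atp5f1*, *Atp5h*, *Cox5b* and *Ndufab1*, whose values are uncertain to the extent that counting split reads between copies.

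Genes around the respiratory chain were taken from 4 further lists. Without Aspartame 2, 0 of 9 electron carriers and entry enzymes passed, with a median difference of -0.07. Among these, *Cyc1* (cytochrome c1 of complex III) differed by -0.12 ± 0.12 (SE). Of 37 assembly factors with other names, 4 fell, namely *Sdhaf2* (-0.33), *Uqcc2* (-0.40), *Pet100* (-0.34) and *Tmem70* (-0.33), which serve complexes II, III, IV and V. Of 18 genes of the tricarboxylic acid cycle and pyruvate dehydrogenase, *Pdhb*, the beta subunit of the first enzyme of pyruvate dehydrogenase, fell by 0.41 on the log2 scale. Of 20 regulators of mitochondrial genes, 3 rose, namely *Nrf1* (0.29), *Pprc1* (0.47), a coactivator related to PGC-1alpha, and *Polrmt* (0.57), the mitochondrial RNA polymerase. The shares called were 10.8% of the assembly factors, 5.56% of the cycle genes and 15% of the regulators, against 8.83% of all genes. With the GC and length trend removed, 1 of the 37 assembly factors (lower), none of the 18 cycle genes and 1 of the 20 regulators (higher) were called, against 2.19% of all genes. None of these genes passed with all 8 libraries.

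Other families of subunit genes were measured beside the members. Without Aspartame 2 their median difference was -0.15 over 77 mitochondrial ribosomal proteins (12 fell, none rose), -0.13 over 35 proteasome subunits (7 fell, none rose) and -0.06 over 88 cytosolic ribosomal proteins (12 fell and 5 rose), against -0.13 over the 83 members. Over all 8 libraries the medians were -0.12, -0.11 and -0.08, against -0.11. With the GC and length trend removed, the medians without Aspartame 2 were -0.06 over the mitochondrial ribosomal proteins (2 fell and 1 rose) and -0.0020 over the proteasome subunits (none called). The median was 0.03 over the cytosolic ribosomal proteins (3 fell and 5 rose), against 0.02 over the members and 0.02 over all genes. The shares called were then 3.90%, 0% and 9.09%, and 3.61% of the members, against 2.19% of all genes. No test of the members against these families was made.

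Cell type markers were measured in the same libraries. All 11 neuronal markers and 11 of 12 amygdala markers passed the minimum level, while 1 of 6 muscle markers and none of 5 blood markers did. Of these, 4 blood markers (*Hba-a1*, *Hba-a2*, *Hbb-bs* and *Hbb-bt*) and the muscle marker *Ckm* are listed at a constant 0, as is *Ndufs5*, which every cell uses, so these zeros say nothing of whether blood or muscle RNA was there. Without Aspartame 2, 3 of 11 neuronal markers were called higher, 1 of 4 of parvalbumin interneurons, 1 of 6 of oligodendrocytes, 2 of 4 of their precursors and 1 of 11 amygdala markers, and none of these was called lower. Over all genes tested, 6.11% were called higher and 2.72% lower. None of 7 astrocyte, 6 microglia, 5 endothelial and 8 pericyte or smooth muscle markers was called. Summed neuronal markers were 14.86 to 14.99 rlog in the aspartame libraries and 14.77 to 14.94 rlog in plain water. Those listed for parvalbumin interneurons (*Pvalb*, *Kcnc1*, *Tac1* and *Syt2*) were 9.57 to 9.81 rlog in Aspartame 1, 3 and 4, against 9.19 to 9.41 rlog in plain water, and 9.23 rlog in Aspartame 2. Whether these 4 genes mark only such cells in the amygdala was not tested. Summed oligodendrocyte markers were 13.47, 12.535, 12.95 and 12.67 rlog in Aspartame 1 to 4, against 12.51 to 12.90 rlog in plain water. No marker was called with all 8 libraries. The part of cell composition in the differences of the members was not tested.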

How the data were processed

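Amygdala RNA of 8 male mice (4 aspartame, 4 plain water, grouped by their labels) was measured by paired 150-base stranded mRNA sequencing. Per the study's methods and the submitters' processing notes, reads were aligned with STAR to mm10 (GRCm38), counted per gene with Salmon and analysed with DESeq2. The authors deposited log2 values that the name of the table calls rlog, a library-size-scaled and shrunken log2 count, and the transformation and its options are not given in the sources used here. Shrinkage pulls the differences of low genes toward 0. No counts were in the table, so depth is unknown, counting error cannot be given and no count test was run.

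Genes that varied with a mean rlog of at least 3 (12861 of 24982; 6350 were constant) were compared by limma (version 3.58.1, under R 4.3.3; moderated test with a mean-variance trend, two-sided, Benjamini-Hochberg adjustment over all genes tested, called at an adjusted p under 0.05). The fit was tested on simulated data. GC content, length and coordinates came from GENCODE M21 on GRCm38 (99.4% of the genes tested, all 83 members), promoters from RefSeq. Tables came from Python 3.11.15 (pandas 2.3.3, numpy 2.4.6) and figures from matplotlib 3.10.9.

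The members, gene lists, tests and named genes were chosen with earlier results of these data known. Genes named with values per library were, in each complex and among the factors, up to 4 called members with the largest difference without Aspartame 2 (where fewer than 2 were called, the 2 with the smallest p) and the member with the smallest p over all 8 libraries. Group values or differences were given for complexes II and III, the core subunits of complex I, the alpha to epsilon subunits of complex V, isoform families and the extremes of level per length. Other members were given by counts and ranges, and 1 gene is not reported here. *Ndufb3*, *Ttr*, *Cyc1* and the called genes of the other lists were named after their values were seen. Same-numbered libraries of the groups were not treated as pairs, because nothing in the labels ties them and their deviations did not all correlate.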

Additional observations from a re-analysis of the deposited data

Results flagged for a closer look

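In 106 groups of 4 libraries (the 48 named members and 5 complex medians in each group), 10 had a highest or lowest library farther from the rest than Dixon's 95% critical value. The chance rate of about 1 in 20 holds for independent groups not chosen by their values, so it is no yardstick here. Some members were named for a small p without Aspartame 2, the groups share libraries, and the medians include named members. The aspartame groups gave 4 of the 10. *Ndufc1* was 5.29 rlog in Aspartame 2 and 4.66 to 4.76 rlog in the others, and *Sdhd* was 7.79 rlog in Aspartame 2 and 7.55 to 7.57 rlog in the others. *Uqcrfs1* was lowest in Aspartame 4, at 7.31 rlog against 7.51 to 7.54 rlog. The median of complex V relative to plain water was -0.29 in Aspartame 4 and -0.11 to -0.07 in the others.

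Plain water gave the other 6, and in each of them Water 1 was highest. *Atp5a1* was 10.87 rlog in Water 1 and 10.73 to 10.74 rlog in the others, *Cox6b1* was 8.78 against 8.57 to 8.59 rlog, *Ndufs8* was 6.38 against 5.94 to 6.01 rlog, and *Uqcrfs1* was 7.71 against 7.56 to 7.58 rlog. The median relative to the plain water mean was 0.13 in Water 1 and -0.04 to -0.03 in the others for complex I, and 0.15 against -0.06 to -0.03 for complex III. The causes were not tested.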

How the results depend on the processing

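Without Aspartame 2, removing the GC and length trend gave 3 member calls in place of 13 and 280 calls over all genes in place of 1136, 1 and 175 when the replicate block was added, and age as a covariate gave 2 and 223. The complex medians with the trend removed were -0.0376, 0.0700, 0.0372, 0.0432 and -0.0435 for complexes I to V (-0.0366, 0.0646, 0.0265, 0.0610 and -0.0500 with the replicate block), and with all 8 libraries -0.0496, 0.0184, 0.00962, 0.00164 and -0.0479 for complexes I to V, the same with the block. A minimum mean of 5 gave -0.16 for complex III without Aspartame 2, where *Uqcrq* dropped out. With all 8 libraries, limma's library weights gave 4 member calls and 443 over all genes, where the other fits of all 8 gave 0. Leaving out 1 library gave 0 to 13 member calls and 0 to 1136 over all genes with all 8 libraries, the upper value without Aspartame 2, and 0 to 25 and 135 to 2080 when a second library was left out after Aspartame 2. Same-numbered libraries correlated at 0.53, 0.15, 0.06 and -0.10 in their deviations from the group means. The replicate block alone gave 19 member calls and 1382 over all genes without Aspartame 2 and 0 with all 8 libraries. Not every library correlated best with its own number. The median shift, quantile normalization, robust moderation, no trend and no minimum gave 10 to 17 member calls. No called difference changed sign under any alternative. Of 1720 alternative values of all named genes, 84 changed sign, each in a difference that neither fit called and each under 0.18 in size. Where a cause is not given it was not tested. Unknown depth limits what can be said of genes near the minimum level.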
